A study of Homo sapiens with 8 samples.

Results

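The liver makes most of the proteins dissolved in blood plasma, and 47 genes for such proteins were followed in HepG2, a human hepatocellular carcinoma line, with and without benzo[a]pyrene (BaP). They were chosen by name, as the genes of plasma carriers, of blood coagulation and its inhibitors, and of complement, and they are 47 of the 49733 gene IDs in the data. BaP is a combustion product, a polycyclic aromatic hydrocarbon, that acts as a ligand of the aryl hydrocarbon receptor (AHR), and cells turn it into reactive products that attach to DNA. The groups were BaP 12 h, vehicle 12 h, BaP 24 h and vehicle 24 h, each with 2 libraries of poly-A RNA from independent experiments. The BaP groups had 2 µM BaP in fresh medium with DMSO as the solvent, the vehicle groups had fresh medium with 0.5% DMSO, and the medium held serum in all groups. HepG2 is a line grown without other liver cell types, so it models the hepatocyte source of these proteins only.

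In the plasma, carriers such as albumin and transferrin move hormones, metals and lipids. Coagulation runs as a cascade of proteases that ends when thrombin cuts fibrinogen into fibrin, and it is held back by antithrombin and other serpins and by activated protein C, a protease that cuts clotting cofactors. Complement is a second cascade of proteases, in which C1, C3 and the terminal components mark and lyse microbes. Hepatocytes raise part of these proteins in inflammation (positive acute phase proteins, such as fibrinogen) and lower others (negative ones, such as albumin).

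Total estimated counts per library ranged from 2592272, in replicate 1 of BaP 24 h, to 16533490, in replicate 2 of the same group. CYP1A1, the AHR target that served as the check of exposure, had 965 and 1058 CPM (counts scaled to a common library depth) in BaP 12 h and 6.56 and 3.49 in vehicle 12 h. It had 375 and 306 CPM in BaP 24 h, against 1.61 and 1.5 in vehicle 24 h. All 11 hepatocyte markers reported here had counts, with APOB the highest at a mean of 9948 CPM. Of markers of other cells, CFTR (cholangiocytes), KDR and TEK (endothelium) and CD163, MARCO and CD3E (immune cells) had no count in any library, while the cholangiocyte list as a whole, led by the keratin gene KRT19, summed to between 609 and 878 CPM. Fold changes are log2 ± SE with n = 2 libraries per group, and p was adjusted over the 14746 genes tested by edgeR's quasi-likelihood method, with a threshold of 0.05.

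The 47 genes spanned most of the range of expression in these cells. Levels between genes are given as TPM, the scaled share of transcripts, which corrects for transcript length. In vehicle 12 h cells, 6 genes were at 1000 TPM or above, 15 lay between 100 and 1000, 11 between 10 and 100, 12 between 1 and 10, and 3 under 1. SERPINA1, which encodes the elastase inhibitor alpha-1-antitrypsin, was the highest at 4625 ± 504 TPM (SD, n = 2) and ranked 29 among all gene IDs. It was followed by albumin (ALB, 2348 ± 47.3 TPM), fetuin-A (AHSG, 1873 ± 138), transferrin (TF, 1725 ± 82.1), AFP (1684 ± 188), the fetal relative of albumin, and complement C3 (1480 ± 154). SERPINA1 and ALB also led in vehicle 24 h cells, at 5592 ± 8.89 and 2730 ± 205 TPM. AHSG, TF and AFP lay within their spread of each other in vehicle 12 h cells, so their order is not resolved.

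**Figure D1:**
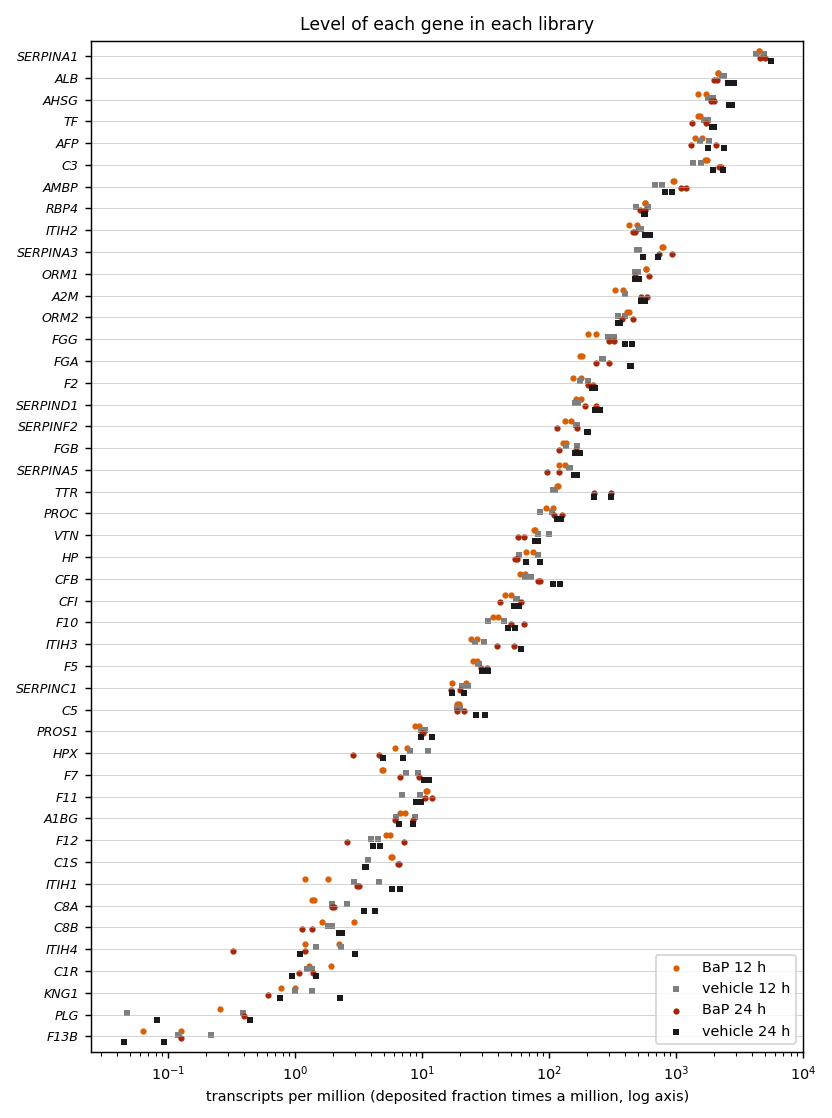
Level of 46 of the 47 genes in each of the 8 libraries, in TPM on a log axis. Circles are BaP libraries and squares vehicle libraries. F9 is not drawn, as it had no count, and values of 0 of other genes are not drawn. SERPINA1 is highest and the lowest genes are PLG and F13B, under 1 TPM.

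At the other end, genes of several classical clotting proteins were barely detected. F9, the gene of factor IX, had no count in any library, which allows up to 0.0354 CPM over the 84688911 counts in all. Plasminogen (PLG), the precursor of the clot-dissolving enzyme plasmin, had 14 counts over all libraries, and F13B, the carrier subunit of factor XIII, had 19. These 3 genes were too low to be tested, which left 44. Kininogen (KNG1) was just above that limit with 163 counts, at 1.19 ± 0.25 TPM in vehicle 12 h cells. The clotting factors therefore ran from prothrombin (F2, 189 ± 18 TPM) through F10 (38.7 ± 7.93), F5 (27.9 ± 0.47), F7 (8.42 ± 1.24), F11 (8.37 ± 1.91) and F12 (4.25 ± 0.42) down to F9. Among complement genes, C3 stood far above CFB (68.4 ± 5.10 TPM), CFI (55.8 ± 0.58) and C5 (19.3 ± 0.79), and C1S (3.77 ± 0.03), C8A (2.27 ± 0.44), C8B (1.90 ± 0.09) and C1R (1.30 ± 0.08) were lowest.

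The remaining genes fell between these ends. The fibrinogen chains stood at 312 ± 23.8 TPM (FGG), 265 ± 5.28 (FGA) and 151 ± 22.5 (FGB) in vehicle 12 h cells. Carriers of vitamin A and thyroxine were at 545 ± 79.3 TPM (RBP4) and 110 ± 2.41 (TTR), the acid glycoproteins at 491 ± 15.9 (ORM1) and 372 ± 33.4 (ORM2), and the binders of free haemoglobin and haem at 70.5 ± 16.7 (HP) and 9.61 ± 2.17 (HPX). A1BG, a plasma glycoprotein gene, was at 7.57 ± 1.84 TPM. Of the genes grouped as anticoagulants, heparin cofactor II (SERPIND1) had 165 ± 4.57 TPM, SERPINA5 146 ± 2.03, protein C (PROC) 95.7 ± 14.7, antithrombin (SERPINC1) 22.0 ± 1.71 and protein S (PROS1) 10.2 ± 0.48. Antithrombin was thus more than 100 TPM below heparin cofactor II in these cells. The genes grouped with inter-alpha inhibitor were led by AMBP (727 ± 63.9 TPM), which encodes its bikunin chain. Genes of the heavy chain family ran from ITIH2 (523 ± 14) through ITIH3 (28.6 ± 3.29) and ITIH1 (3.76 ± 1.19) to ITIH4 (1.89 ± 0.60). The inhibitors SERPINA3 (502 ± 13.9 TPM), A2M (397 ± 0.14) and SERPINF2 (165 ± 1.66), and vitronectin (VTN, 91.1 ± 12.3), an adhesive plasma glycoprotein, complete the set.

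The comparison at each time asked which of these genes differed with BaP from vehicle. At 12 h, 6 of the 44 genes passed (13.6%, against 8.25% of all genes tested). SERPINA3 and the complement protease gene C1S were higher, and FGA, FGG, F7 and ITIH1 were lower. The shares over the whole table were 3.41% higher and 4.84% lower. At 24 h, 6 genes passed again (13.6%, against 5.3% of the whole table, 3.11% being higher and 2.2% lower). C1S was higher, and FGA, ITIH1, SERPINA5, SERPINF2 and CFB were lower. FGA, ITIH1 and C1S passed at both times, and each had the same direction at both.

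**Figure D2:**
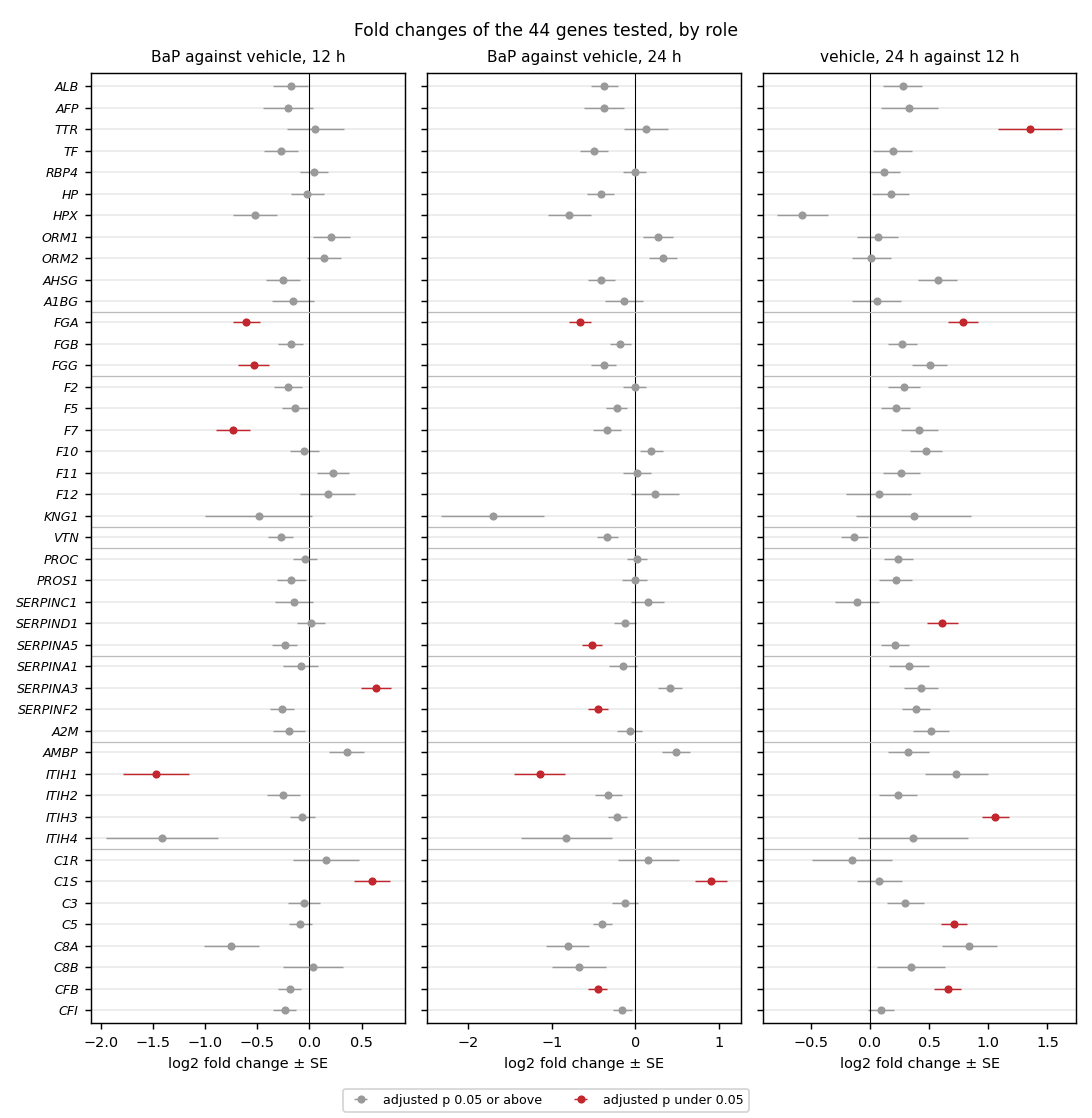
Log2 fold change ± SE (n = 2 libraries per group) of the 44 genes tested, in 3 comparisons, with genes grouped by role and horizontal lines between roles. Red points had an adjusted p under 0.05, and the horizontal axes differ between panels. In the BaP panels most points lie left of 0, and in the vehicle panel most lie right of it.

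Over all 44 genes tested, those that passed included, most values lay below 0 by small amounts. The median log2 fold change of the 44 genes was -0.17 at 12 h, where the median of all genes was 0.02, and 32 of the 44 values were negative. At 24 h the median was -0.20, against 0.01 for all genes, and again 32 values were negative. Both BaP libraries lay below both vehicle libraries for 22 genes at 12 h and 23 at 24 h, 50% and 52.3% of those tested, against 23.9% and 24% of all genes. They lay above for 8 genes at 12 h (18.2%, against 25.4% of all genes) and 4 at 24 h (9.09%, against 23.3%). Summed over the 47 genes, the share of a library's counts was 2.56% and 2.70% in BaP 12 h, against 2.82% and 2.74% in vehicle 12 h, and 2.90% and 2.95% in BaP 24 h, against 3.33% and 3.49% in vehicle 24 h. The summed shares of the BaP libraries were thus lower than those of their vehicle libraries at both times. In each library the 6 genes of the set with the most counts held 65.1% to 69.0% of its sum, which thus describes mainly abundant genes. A share is relative to the other counts of a library, so it also falls where other transcripts rise. Fewer expressing cells, less RNA of these genes per cell and more RNA of other genes cannot be told apart in these data.

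**Figure D3:**
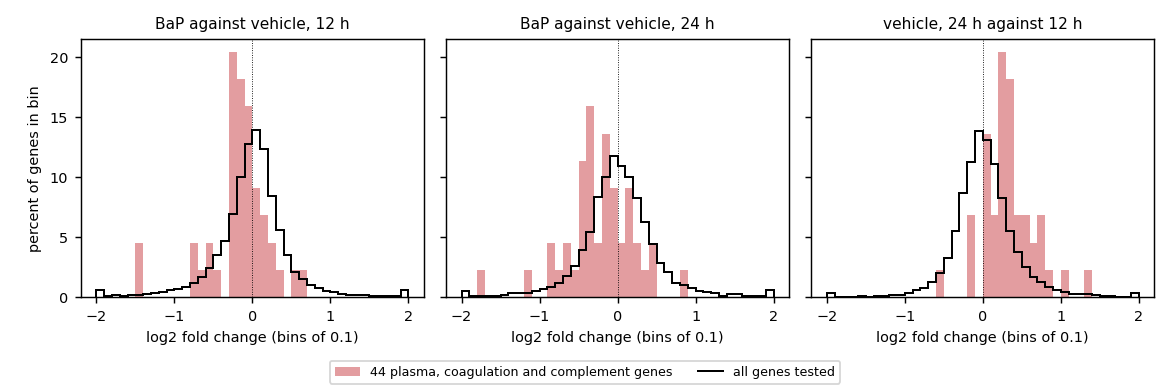
Percent of genes in bins of log2 fold change 0.1 wide, for the 44 genes tested (filled) and all 14746 genes tested (line), in 3 comparisons. Values past 2 in size are drawn in the end bins. The filled histogram is shifted to the left in both BaP panels and to the right in the vehicle panel.

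Fibrinogen is a dimer of alpha, beta and gamma chains, whose genes lie next to each other. FGA, the alpha chain gene, had 339 and 340 CPM in BaP 12 h, against 513 and 517 in vehicle 12 h (log2 -0.60 ± 0.13, adjusted p = 0.007). At 24 h it had 564 and 560 CPM with BaP, against 865 and 912 with vehicle (log2 -0.66 ± 0.13, adjusted p = 0.007). The BaP and vehicle groups did not overlap at either time, and the replicates of FGA lay closer together than the groups by a wide margin. FGG, the gamma chain gene, had 290 and 256 CPM in BaP 12 h, against 402 and 389 in vehicle 12 h (log2 -0.54 ± 0.15, adjusted p = 0.035). At 24 h FGG had 365 and 495 CPM with BaP and 583 and 541 with vehicle (log2 -0.38 ± 0.15, adjusted p = 0.165), so the groups did not overlap but the test did not pass. FGB, the beta chain gene, did not pass at either time. It had 126 and 112 CPM in BaP 12 h, against 141 and 128 in vehicle 12 h, and 131 and 154 in BaP 24 h, against 168 and 158 in vehicle 24 h. Its log2 fold change was -0.18 ± 0.12 at 12 h (adjusted p = 0.473) and -0.18 ± 0.12 at 24 h (adjusted p = 0.444).

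The balance of the chains differed as well, as a description with no test. The ratio of FGA to FGB in CPM was 2.68 and 3.03 in BaP 12 h, 3.64 and 4.03 in vehicle 12 h, 4.30 and 3.63 in BaP 24 h, and 5.15 and 5.79 in vehicle 24 h. The ratio was lower in the BaP libraries than in the vehicle libraries of the same time. The 12 h call of FGA was lost without BaP replicate 1 (adjusted p = 0.13) or 2 (adjusted p = 0.1), and the 24 h call was lost without vehicle replicate 1 (adjusted p = 0.071) or 2 (adjusted p = 0.1) and in a fit of the 24 h libraries alone (adjusted p = 0.07). Over all alternatives the adjusted p ran from 1.8e-06 to 0.13 at 12 h and from 2e-07 to 0.1 at 24 h, while the fold change stayed between -0.62 and -0.60 and between -0.70 and -0.62. FGG lost its call when any of the 4 libraries at 12 h was left out (adjusted p from 0.087 to 0.32) and with the replicate number as a block (adjusted p = 0.052), the lowest value over all alternatives being 6.8e-04.

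The promoters of these 3 genes and of ALB are shown because HNF1, a transcription factor of hepatocytes, is known to bind liver gene promoters with the core GTTAAT, which reads ATTAAC from the opposite strand. The lines give 150 bases before each start site, 5′ to 3′ on the gene's strand, from RefSeq on GRCh38.p14, with the HNF1 core in capitals. The stretches are chr4:154590743-154590892 (minus strand, FGA), chr4:154562830-154562979 (plus strand, FGB), chr4:154612657-154612806 (minus strand, FGG) and chr4:73404137-73404286 (plus strand, ALB).
FGA: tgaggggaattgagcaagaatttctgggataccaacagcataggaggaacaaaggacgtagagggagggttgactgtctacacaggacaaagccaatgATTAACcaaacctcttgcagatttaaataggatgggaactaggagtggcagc
FGB: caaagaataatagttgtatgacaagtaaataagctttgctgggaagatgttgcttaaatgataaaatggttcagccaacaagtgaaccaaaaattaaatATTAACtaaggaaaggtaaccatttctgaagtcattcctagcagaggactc
FGG: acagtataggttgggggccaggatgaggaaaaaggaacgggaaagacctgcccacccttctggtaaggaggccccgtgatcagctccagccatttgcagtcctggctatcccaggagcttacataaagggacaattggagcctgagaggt
ALB: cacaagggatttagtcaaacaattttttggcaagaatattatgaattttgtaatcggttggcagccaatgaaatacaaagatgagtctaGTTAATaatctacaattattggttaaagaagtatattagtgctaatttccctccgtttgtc

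The core began 52 bases before the start in FGA, 51 in FGB and 61 in ALB, and these letters were not in the FGG stretch. A window of 300 bases (250 before the start and 50 after) was available for 38 of the 47 genes. On either strand, 9 of these 38 windows held GTTAAT (23.7%), against 6.89% of 27305 windows of all genes. They were those of F13B, PROC, ALB, AFP, CFI, FGB, FGA, PLG and F2. GCGTG, the core of the AHR binding motif, was in 9 windows (23.7%, against 36.3% of all). These were the windows of ITIH1, ITIH3, ALB, PLG, C5, F7, F10, SERPINA1 and F9. The palindrome TTCNNNGAA, bound by STAT factors of the acute phase response, was in 11 (28.9%, against 7.88%). Of these, FGA, SERPINA5 and CFB passed with BaP. ITIH4, PROS1, RBP4, F10, VTN, A1BG and SERPIND1 did not pass with BaP, and F9 was not tested. TATAAA was in 13.2% (12.0% of all) and CCAAT in 42.1% (35.7% of all). A letter match is not evidence of binding. Of the genes that passed with BaP, the windows of ITIH1 and F7 held GCGTG and those of FGA, FGG, SERPINA3, SERPINA5 and CFB did not. C1S and SERPINF2 could not be read, and a link of these letters to BaP was not tested. A2M, C1S, C3, HP, ITIH2, ORM2, SERPINC1, SERPINF2 and TTR had no window.

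Among the 7 clotting factor genes tested, F7 alone passed at 12 h (14.3%, against 8.25% of all genes). None passed at 24 h by edgeR, where 5.3% of all genes did, or by DESeq2. At 24 h 1 had an unadjusted p under 0.05 in edgeR. F7 encodes factor VII, which starts coagulation together with tissue factor. It had 10.2 and 9.76 CPM in BaP 12 h, against 18.2 and 14.9 in vehicle 12 h (log2 -0.73 ± 0.16, adjusted p = 0.009). At 24 h the libraries had 17.6 and 17.4 CPM with BaP and 22.2 and 21.9 with vehicle (log2 -0.34 ± 0.17, adjusted p = 0.266). The F7 groups were thus apart at both times. The call at 12 h was lost without BaP replicate 1 (adjusted p = 0.08), BaP replicate 2 (0.11) or vehicle replicate 1 (0.086), and its adjusted p over all alternatives ran from 0.0018 to 0.11. F10, the neighbour of F7 on chromosome 13 and the gene of the factor that VIIa activates, had 47.5 and 42.5 CPM in BaP 12 h and 52.8 and 40.1 in vehicle 12 h, which overlap. F2, the gene of prothrombin, had 252 and 281 CPM in BaP 12 h, against 323 and 291 in vehicle 12 h (log2 -0.21 ± 0.14, adjusted p = 0.473), and 330 and 413 in BaP 24 h, against 358 and 393 in vehicle 24 h (log2 -0.01 ± 0.14, adjusted p = 0.986). Their log2 fold changes ranged from -0.73 to 0.22 at 12 h and from -1.71 to 0.23 at 24 h. The lowest value at 24 h was that of KNG1, named after its values were seen, which had 0 and 1.07 CPM with BaP and 3.82 and 1.31 with vehicle (adjusted p = 0.133), where 3 counts in the shallowest library equal 1.12 CPM.

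Of the 5 genes grouped as anticoagulants 1 passed at 24 h, SERPINA5, and of the 4 genes of other protease inhibitors 1 did, SERPINF2, both as lower (2.2% of all genes were lower). SERPINA5 was placed in the anticoagulant group although its product inhibits protein C, itself an anticoagulant. SERPINA5, the protein C inhibitor, had 225 and 234 CPM in BaP 24 h, against 327 and 334 in vehicle 24 h (log2 -0.52 ± 0.12, adjusted p = 0.018). At 12 h it had 231 and 252 CPM with BaP and 278 and 292 with vehicle (log2 -0.24 ± 0.12, adjusted p = 0.282), so the groups were apart at both times. SERPINF2, or alpha-2-antiplasmin, the main plasma inhibitor of plasmin, had 272 and 276 CPM in BaP 24 h, against 366 and 380 in vehicle 24 h (log2 -0.45 ± 0.12, adjusted p = 0.038). At 12 h it had 229 and 245 CPM with BaP and 287 and 283 with vehicle (log2 -0.26 ± 0.12, adjusted p = 0.222). Both genes had closely agreeing replicates in every group. Their calls were lost in a fit of the 24 h libraries alone (adjusted p = 0.076 for SERPINA5 and 0.13 for SERPINF2) and without vehicle replicate 1 (0.15 and 0.22) or 2 (0.16 and 0.27). SERPINF2 also lost its call without BaP replicate 2 (adjusted p = 0.078) and with the replicate block (0.054), and the lowest adjusted p over all alternatives was 6.1e-04 for SERPINA5 and 0.0051 for SERPINF2.

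The remaining genes of the anticoagulant group, SERPIND1, PROC, PROS1 and SERPINC1, did not pass at either time. SERPIND1, which inhibits thrombin in the presence of heparin or dermatan sulphate, had 332 and 357 CPM in BaP 12 h, against 342 and 340 in vehicle 12 h (log2 0.02 ± 0.13, adjusted p = 0.971), and 469 and 489 in BaP 24 h, against 480 and 562 in vehicle 24 h (log2 -0.12 ± 0.13, adjusted p = 0.673). Its groups overlapped at both times. VTN had 131 and 124 CPM in BaP 12 h, against 166 and 142 in vehicle 12 h, and 103 and 118 in BaP 24 h, against 141 and 141 in vehicle 24 h, with no call.

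SERPINA3, or alpha-1-antichymotrypsin, an acute phase inhibitor of neutrophil cathepsin G, rose at 12 h. It had 991 and 949 CPM in BaP 12 h, against 651 and 598 in vehicle 12 h (log2 0.63 ± 0.15, adjusted p = 0.011). At 24 h it had 1137 and 1103 CPM with BaP and 921 and 762 with vehicle (log2 0.41 ± 0.15, adjusted p = 0.118), so the groups were apart but the test did not pass. Its call at 12 h was lost without BaP replicate 1 (adjusted p = 0.16), BaP replicate 2 (0.098) or vehicle replicate 2 (0.11), in a range over all alternatives from 2.5e-05 to 0.16. Its chromosomal neighbour SERPINA1 had 5918 and 5819 CPM in BaP 12 h, against 6588 and 5849 in vehicle 12 h (log2 -0.08 ± 0.17, adjusted p = 0.858), and 6536 and 7605 in BaP 24 h, against 7580 and 8075 in vehicle 24 h (log2 -0.15 ± 0.17, adjusted p = 0.686). SERPINA5 lies in the same cluster on chromosome 14. Of these 3 genes, SERPINA3 alone passed at 12 h, as higher, and SERPINA5 alone at 24 h, as lower.

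Inter-alpha inhibitor joins bikunin to heavy chains that are transferred to hyaluronan in the matrix. ITIH1, a heavy chain gene, had the largest fall of the genes that passed, on low counts. It had 1.16 and 1.54 CPM in BaP 12 h, against 4.13 and 3.56 in vehicle 12 h (log2 -1.47 ± 0.32, adjusted p = 0.007). At 24 h it had 3.75 and 2.61 CPM with BaP, against 5.85 and 7.12 with vehicle (log2 -1.14 ± 0.31, adjusted p = 0.039). The groups did not overlap at either time. The 12 h call was lost without BaP replicate 1 (adjusted p = 0.097, range over all alternatives 7.9e-04 to 0.097). The 24 h call was lost by DESeq2 (adjusted p = 0.22), with the replicate block (0.053), in a fit of the 24 h libraries alone (0.072), and without BaP replicate 2 (0.53), vehicle replicate 1 (0.15) or vehicle replicate 2 (0.23), the lowest value being 0.013. AMBP, the bikunin gene, did not pass and lay higher in the BaP libraries, with 1111 and 1066 CPM in BaP 12 h, against 887 and 814 in vehicle 12 h, and 1243 and 1735 in BaP 24 h, against 967 and 1166 in vehicle 24 h.

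ITIH3 and ITIH4 lie beside ITIH1 on chromosome 3. ITIH3 had 48.9 and 52.1 CPM in BaP 12 h, against 55.4 and 50.5 in vehicle 12 h (log2 -0.07 ± 0.12, adjusted p = 0.834), and 96.7 and 93.9 in BaP 24 h, against 105 and 116 in vehicle 24 h (log2 -0.22 ± 0.12, adjusted p = 0.317). ITIH4, an acute phase gene of the heavy chain family, had only 0.813 and 0.538 CPM in BaP 12 h, against 2.14 and 1.40 in vehicle 12 h, and did not pass.

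Complement held both a higher and a lower gene. C1S, a protease of the C1 complex that cuts C4 and C2, had 12.2 and 11 CPM in BaP 12 h, against 7.07 and 8.16 in vehicle 12 h (log2 0.60 ± 0.18, adjusted p = 0.045). At 24 h it had 15 and 15 CPM with BaP, against 8.06 and 8.05 with vehicle (log2 0.90 ± 0.19, adjusted p = 0.011). The groups did not overlap at either time and C1S was the only gene of the set that passed as higher at both. Its partner and neighbour C1R had 2.21 and 3.00 CPM in BaP 12 h, against 2.43 and 2.30 in vehicle 12 h, which overlap. CFB, the protease of the alternative pathway and an acute phase gene, had 117 and 109 CPM in BaP 24 h, against 158 and 150 in vehicle 24 h (log2 -0.45 ± 0.12, adjusted p = 0.033). At 12 h CFB had 86.5 and 84.7 CPM with BaP and 105 and 90.2 with vehicle (log2 -0.19 ± 0.11, adjusted p = 0.403). CFB was thus lower in the BaP libraries at both times, with a call at 24 h.

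The 12 h call of C1S was lost under 7 of 9 alternatives, namely without any of the 4 libraries (adjusted p from 0.067 to 0.32), without the filter on low counts (0.075), by DESeq2 (0.25) and in a fit of the 12 h libraries alone (0.052), and its lowest value was 0.043. The 24 h call of C1S was lost by DESeq2 (adjusted p = 0.058) and without BaP replicate 2 (0.13) or vehicle replicate 1 (0.15) or 2 (0.088), with 0.0042 as the lowest value. CFB lost its call in a fit of the 24 h libraries alone (adjusted p = 0.09) and without BaP replicate 2 (0.18), vehicle replicate 1 (0.27) or vehicle replicate 2 (0.16), with 0.011 as the lowest value. C5, from which the terminal pathway starts, had 88.4 and 81.0 CPM in BaP 24 h, against 109 and 113 in vehicle 24 h, just short of the threshold (log2 -0.40 ± 0.11, adjusted p = 0.053), and 62.2 and 65.1 in BaP 12 h, against 65.7 and 69.8 in vehicle 12 h (log2 -0.09 ± 0.11, adjusted p = 0.747). C3, the component where all pathways meet, had 2803 and 3021 CPM in BaP 12 h, against 3125 and 2914 in vehicle 12 h (log2 -0.05 ± 0.16, adjusted p = 0.911), and 3541 and 3295 in BaP 24 h, against 3893 and 3543 in vehicle 24 h (log2 -0.12 ± 0.16, adjusted p = 0.725). C8A, a subunit of the membrane attack complex, had 2.79 and 2.61 CPM in BaP 12 h, against 5.08 and 3.98 in vehicle 12 h, and 3.75 and 4.94 in BaP 24 h, against 8.56 and 7.49 in vehicle 24 h. Its groups were apart at both times, but it did not pass (adjusted p = 0.101 and 0.085).

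**Figure D4:**
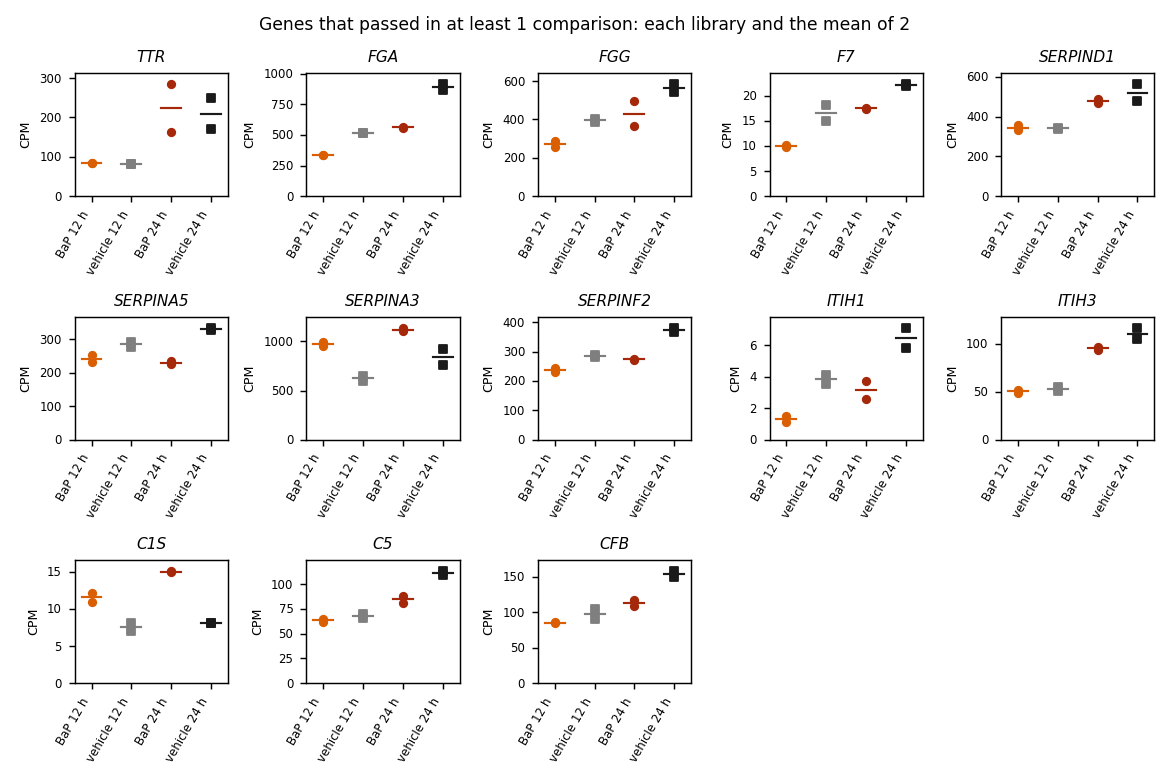
Depth-scaled CPM of the 13 genes that passed in at least 1 comparison, in each library, with a horizontal line at the mean of 2 libraries. Each vertical axis starts at 0. FGA, SERPINF2 and ITIH1 lie lower in BaP than in vehicle libraries of the same time, and C1S and SERPINA3 lie higher.

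None of the 11 carrier genes passed at either time by edgeR (8.25% of all genes did at 12 h and 5.3% at 24 h). DESeq2 called 0 at 12 h and 2 at 24 h (TF and AHSG, both lower), and at an unadjusted p under 0.05 edgeR had 1 at 12 h and 5 at 24 h. TF had 2061 and 2538 CPM in BaP 24 h, against 3040 and 3458 in vehicle 24 h. AHSG, whose product fetuin-A binds calcium phosphate, had 2646 and 3150 CPM in BaP 24 h, against 3598 and 4085 in vehicle 24 h. The groups of both genes were apart at 24 h. The log2 fold changes of the 11 carriers ranged from -0.52 to 0.21 at 12 h and from -0.79 to 0.33 at 24 h. ALB had 2078 and 2075 CPM in BaP 12 h, against 2273 and 2433 in vehicle 12 h (log2 -0.18 ± 0.16, adjusted p = 0.632). At 24 h it had 1967 and 2448 CPM with BaP, against 2615 and 3094 with vehicle (log2 -0.37 ± 0.16, adjusted p = 0.220). The ALB libraries were lower with BaP without overlap at both times, by less than the test requires. AFP had 1310 and 1571 CPM in BaP 12 h, against 1468 and 1853 in vehicle 12 h (log2 -0.21 ± 0.24, adjusted p = 0.727), and 1240 and 1982 in BaP 24 h, against 1706 and 2482 in vehicle 24 h (log2 -0.37 ± 0.24, adjusted p = 0.419). Its groups overlapped at both times, and replicate 2 was the higher one in each group. Between libraries of the same number, the BaP library was the lower one at both times, though the labels do not say that numbers pair libraries. With the replicate number as a block AFP did not pass either (edgeR adjusted p = 0.577 at 12 h and 0.204 at 24 h). The ratio of ALB to AFP followed the replicates more than the treatment, at 1.59 and 1.32 in BaP 12 h, 1.55 and 1.31 in vehicle 12 h, 1.59 and 1.23 in BaP 24 h, and 1.53 and 1.25 in vehicle 24 h. TTR had 85.1 and 84.4 CPM in BaP 12 h, against 80.8 and 82.1 in vehicle 12 h (log2 0.06 ± 0.27, adjusted p = 0.947), and 163 and 284 in BaP 24 h, against 170 and 248 in vehicle 24 h (log2 0.13 ± 0.27, adjusted p = 0.850). HPX, named after its values were seen, had the lowest carrier fold change at 24 h, with 5.99 and 4.81 CPM in BaP 24 h and 9.84 and 7.30 in vehicle 24 h (adjusted p = 0.095). ORM1 and ORM2 are near-identical copies whose reads could be split between them, and their summed CPM was 582 and 570 in BaP 12 h, 514 and 501 in vehicle 12 h, 484 and 784 in BaP 24 h, and 520 and 526 in vehicle 24 h.

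Acute phase genes did not share a direction. Of 12 positive acute phase genes in the set, SERPINA3 was higher and FGA and FGG lower at 12 h. FGA and CFB were lower at 24 h. The calls made up 25% of the 12 genes at 12 h and 16.7% at 24 h, against 8.25% and 5.3% of all genes. The medians of the 12 genes were -0.13 and -0.28. Of 5 negative ones (ALB, TTR, TF, RBP4 and AHSG), none passed at either time, with medians of -0.18 and -0.37, while DESeq2 called 0 at 12 h and 2 at 24 h and an unadjusted p under 0.05 in edgeR was found for 0 and 3. Both classes thus had medians below 0 at both times. Of 15 genes of acute phase signalling outside the set, OSMR, a receptor subunit for oncostatin M, was higher at both times, and the transcription factor genes CEBPD and CEBPB were higher at 12 h. That was 20% of the list at 12 h and 6.67% at 24 h, against 3.41% and 3.11% of all genes higher. OSMR had 111 and 102 CPM in BaP 12 h, against 77.6 and 69.1 in vehicle 12 h (log2 0.53 ± 0.12, adjusted p = 0.008). Of 7 further genes listed with the acute phase and tested, HAMP, the gene of the iron hormone hepcidin, was higher at 12 h (log2 0.70 ± 0.15, adjusted p = 0.011), and SAA4 was higher at 24 h (log2 1.57 ± 0.25, adjusted p = 0.003). That was 14.3% of the list at each time. At 24 h HAMP had 52.8 and 71.3 CPM with BaP and 73.9 and 61.4 with vehicle, which overlap. A place in this list does not make a gene, SAA4 included, one that inflammation raises.

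The response at 24 h minus that at 12 h was tested directly. No gene of the 44 passed (0.543% of all genes did, 0.461% upward and 0.0814% downward), the smallest adjusted p was 0.566, and none had an unadjusted p under 0.05. DESeq2 also called 0. The calls that differ between the times, such as F7 at 12 h and SERPINA5 at 24 h, are therefore not shown to differ between the times.

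In vehicle cells the set moved with time in culture. Of the 44 genes, 6 were higher at 24 h than at 12 h and none was lower (13.6%, against 3.28% of all genes, of which 2.27% higher and 1.01% lower). The median log2 difference was 0.29, against 0.01 for all genes, and 40 of 44 values were positive. Both vehicle 24 h libraries lay above both vehicle 12 h libraries for 31 genes (70.5%, against 25.3% of all genes), and below for 3 (6.82%, against 23.3%). This comparison shares its vehicle 24 h libraries with the BaP comparison at 24 h and its vehicle 12 h libraries with that at 12 h, so the results are not independent. A high vehicle 24 h library lowers the BaP value at 24 h and raises the value over time, and a high vehicle 12 h library lowers both the BaP value at 12 h and the value over time.

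ITIH3 rose most clearly, with 105 and 116 CPM in vehicle 24 h, against 55.4 and 50.5 in vehicle 12 h (log2 1.06 ± 0.11, adjusted p = 7.9e-05). TTR, which carries thyroxine and the retinol-binding protein, had 170 and 248 CPM in vehicle 24 h, against 80.8 and 82.1 in vehicle 12 h (log2 1.35 ± 0.27, adjusted p = 0.048). FGA had 865 and 912 CPM in vehicle 24 h, against 513 and 517 in vehicle 12 h (log2 0.79 ± 0.13, adjusted p = 0.0026). The times did not overlap for these 3 genes, and TTR had the widest spread between its 24 h libraries. C5 had 109 and 113 CPM in vehicle 24 h, against 65.7 and 69.8 in vehicle 12 h (log2 0.71 ± 0.11, adjusted p = 0.0017). CFB had 158 and 150 CPM in vehicle 24 h, against 105 and 90.2 in vehicle 12 h (log2 0.66 ± 0.11, adjusted p = 0.0038). SERPIND1 had 480 and 562 CPM in vehicle 24 h, against 342 and 340 in vehicle 12 h (log2 0.61 ± 0.13, adjusted p = 0.016). Complement and coagulation genes were thus both among those that rose.

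ITIH3 and C5 passed under all 9 alternatives, with adjusted p up to 0.0073 and 0.046. TTR lost its call without vehicle 12 h replicate 1 (adjusted p = 0.17) or 2 (0.17) or vehicle 24 h replicate 2 (0.15), FGA without vehicle 24 h replicate 2 (0.074), and SERPIND1 without any of the 4 vehicle libraries (0.052 to 0.34). CFB lost its call without vehicle 12 h replicate 2 (adjusted p = 0.068), vehicle 24 h replicate 1 (0.065) or vehicle 24 h replicate 2 (0.051). Over all alternatives the lowest adjusted p of these 4 was 1.3e-17 for TTR, 1.2e-10 for FGA, 6.9e-05 for SERPIND1 and 1.6e-04 for CFB. Of the genes given at every comparison, ALB (log2 0.28 ± 0.16, adjusted p = 0.438), AFP (0.33 ± 0.24, adjusted p = 0.553), FGB (0.27 ± 0.12, adjusted p = 0.260), FGG (0.51 ± 0.15, adjusted p = 0.077), F2 (0.29 ± 0.14, adjusted p = 0.315), SERPINA1 (0.33 ± 0.17, adjusted p = 0.352) and C3 (0.30 ± 0.16, adjusted p = 0.370) did not pass. F7 (0.42 ± 0.15, adjusted p = 0.174), SERPINA5 (0.21 ± 0.12, adjusted p = 0.40), SERPINA3 (0.43 ± 0.15, adjusted p = 0.129), SERPINF2 (0.39 ± 0.12, adjusted p = 0.086), ITIH1 (0.73 ± 0.27, adjusted p = 0.167) and C1S (0.08 ± 0.19, adjusted p = 0.891), which differed with BaP, did not pass over time either. HPX was the lowest of the set over time, at 9.84 and 7.30 CPM in vehicle 24 h and 15 and 11.2 in vehicle 12 h, with no call (adjusted p = 0.187).

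Genes of the same pathways outside the set were read from lists of other plasma protein genes. Of the 12 further haemostasis genes in the fit and reported here, 1 was higher and 1 was lower in BaP cells at each time. That was 16.7% of the list, against 8.25% of all genes at 12 h and 5.3% at 24 h. CPB2, which encodes the clot-stabilising carboxypeptidase TAFI, had 18 and 21.6 CPM in BaP 12 h, against 31.9 and 40.0 in vehicle 12 h (log2 -0.85 ± 0.15, adjusted p = 0.0018), and 24.7 and 30.4 in BaP 24 h, against 47.4 and 48.7 in vehicle 24 h (log2 -0.75 ± 0.16, adjusted p = 0.011). CPB2 was thus lower than in vehicle at both times. PLAU, the urokinase gene, was higher at 12 h (log2 1.61 ± 0.41, adjusted p = 0.022) on 4.64 and 2.77 CPM with BaP and 1.33 and 1.05 with vehicle. This call was lost by DESeq2. At 24 h PLAU had 1.50 and 0.60 CPM with BaP and 1.36 and 0.94 with vehicle, which overlap. PROCR, the endothelial protein C receptor gene, was higher at 24 h (log2 1.71 ± 0.37, adjusted p = 0.014) on 7.12 and 5.28 CPM with BaP and 1.95 and 1.5 with vehicle.

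Of 16 further complement genes tested, none passed at 12 h and CD55, which speeds the decay of complement convertases on cell surfaces, was higher at 24 h. The 24 h share of 6.25% was near the 5.3% of all genes. CD55 had 42.3 and 56.5 CPM in BaP 24 h, against 28.1 and 30.0 in vehicle 24 h (log2 0.82 ± 0.15, adjusted p = 0.0041). At 12 h DESeq2 also called 0, and 2 of these genes had an unadjusted p under 0.05 in edgeR. Of 15 further carrier and inhibitor genes, kallistatin (SERPINA4) was lower at both times (log2 -0.68 ± 0.17, adjusted p = 0.018, and -0.85 ± 0.19, adjusted p = 0.014). At 24 h angiotensinogen (AGT) was lower (log2 -0.59 ± 0.15, adjusted p = 0.026) and AZGP1 higher (log2 0.57 ± 0.14, adjusted p = 0.032). The median of this list was -0.19 at 12 h and -0.18 at 24 h. Its calls made up 6.67% at 12 h and 20% at 24 h, against 8.25% and 5.3% of all genes. Of 10 genes of clotting factor maturation, which covers vitamin K use and propeptide cleavage, NQO1, a quinone reductase and AHR target, was the only call with BaP, and it was higher at both times (log2 1.33 ± 0.15, adjusted p = 1.8e-05, and 1.55 ± 0.15, adjusted p = 1.9e-05). This was 10% of the list at each time, against 8.25% and 5.3% of all genes.

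Over time in vehicle cells these lists also held higher genes. Of all genes, 2.27% were higher and 1.01% lower. The lists had 1 of 12 haemostasis, 2 of 16 complement and 3 of 15 carrier genes higher. The acute phase list had 3 of 7, some shared with those lists, and acute phase signalling 1 of 15. Of 10 clotting factor maturation genes, 0 were higher and 1 was lower. TFPI (log2 0.90 ± 0.15, adjusted p = 0.0036), the inhibitor of the tissue factor pathway, was higher at 24 h than at 12 h. So were the complement regulators SERPING1 (0.77 ± 0.17, adjusted p = 0.023) and CD55 (0.58 ± 0.15, adjusted p = 0.045), and the carriers CP (0.76 ± 0.13, adjusted p = 0.0026), SELENOP (0.91 ± 0.15, adjusted p = 0.0032) and SERPINA7 (0.60 ± 0.13, adjusted p = 0.018). IL1RN (0.81 ± 0.15, adjusted p = 0.0063) and CEBPD (0.96 ± 0.17, adjusted p = 0.0051) were higher in the acute phase lists. FURIN, a propeptide protease, was lower (log2 -0.63 ± 0.12, adjusted p = 0.0068).

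Some markers of the hepatocyte and of other cells also passed in the BaP comparisons. Of 11 hepatocyte markers, 2 were lower at 12 h (CPS1 and APOB, 18.2%) and 3 at 24 h (those and APOC3, 27.3%). None passed as higher, though 3 of the 11 values were positive at each time. Of all genes tested, 4.84% were lower and 3.41% higher at 12 h, and 2.2% and 3.11% at 24 h. The hepatocyte list's median log2 fold change was -0.12 at 12 h and -0.18 at 24 h, against 0.02 and 0.01 for all genes. Its summed level was 10226 to 10979 CPM in BaP 12 h, 14594 to 16811 in vehicle 12 h, 13573 to 15055 in BaP 24 h and 18371 to 20856 in vehicle 24 h. Most of this sum was APOB, with 6133 and 6957 CPM in BaP 12 h, against 10221 and 12750 in vehicle 12 h, and 8515 and 7749 in BaP 24 h, against 12782 and 14479 in vehicle 24 h. Of 6 immune markers, CD14 was higher at both times and CD68 at 24 h (the 12 h call of CD14 was lost in 8 of 9 alternatives), with CD163, MARCO and CD3E at 0, and the list summed to 45.6 to 49.3 CPM in BaP 12 h, 38.4 to 42.3 in vehicle 12 h, 58.8 to 61.5 in BaP 24 h and 38.6 to 39.3 in vehicle 24 h. Of 6 fibroblast and stellate markers, 4 were under 1 CPM in every library and PDGFRB was lower at 12 h, and the list summed to 20.7 to 29.1 CPM in BaP 12 h, 35.4 to 60.1 in vehicle 12 h, 26.0 to 31.8 in BaP 24 h and 39.5 to 57.2 in vehicle 24 h. The 4 endothelial markers in the data summed to at most 3.00 CPM, in vehicle 24 h. The part of these marker differences in the results above was not tested.

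The genes of the set were mostly short. The median genomic span of 46 genes was 18.4 kb, from 3.38 kb to 107 kb (PROS1), and 1 exceeded 100 kb. The 13525 genes tested with a known span had a median of 29.2 kb, and 2301 exceeded 100 kb.

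Use of alternative transcripts was tested for the 23 genes with more than 1 transcript at 10% or more of the gene's counts. None passed at 12 h or at 24 h (0.307% and 0.922% of 6831 genes did). At an unadjusted p under 0.05 there were 0 at 12 h and 1 at 24 h, that of haptoglobin (HP, adjusted p = 0.292 by edgeR's F-test), which was picked out once its values were seen. The transcript HP-204 took 75.1% and 71.9% of the gene's counts in BaP 24 h, against 52.5% and 39.0% in vehicle 24 h, while the BaP 12 h libraries had 43.9% and 38.2% and the vehicle 12 h libraries 46.0% and 58.9%. The BaP libraries lay above the vehicle libraries in this share at 24 h and below them at 12 h. Without BaP 24 h replicate 1, the shallowest library, 2 of 24 genes passed at 24 h, TF and AHSG.

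The number of calls depended on single libraries, with 2 libraries per group. For fits without a library, those of transcript usage included, the shares of all genes are not given. Their counts thus do not compare the set with other genes. At 12 h the count of 6 fell to 0 without BaP replicate 1, 1 without BaP replicate 2, and 3 without either vehicle library. At 24 h it was 12 without BaP replicate 1 (4 higher and 8 lower), 4 without BaP replicate 2, and 0 without either vehicle library. Over time in vehicle cells it was 3 without vehicle 12 h replicate 2 and 2 without vehicle 24 h replicate 2.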

How the data were processed

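Per the labels, HepG2 cells at 80% confluence received BaP or DMSO in 2 independent experiments. Per the submitters' processing notes, the authors used Bowtie 0.12.7 and RSEM 1.1.7, and edgeR without a version. Per the file names, the annotation was Ensembl release 58, with a genome build not given in the sources used here. The authors deposited RSEM estimated counts per gene and transcript, not normalised, and the deposited fraction of transcripts, corrected for length, which was scaled to TPM. Use of strand in counting was not given in the sources used here, and A1BG and its antisense partner cannot be told apart. Floors cover counting error only. The p-values rest on an estimate of spread per gene that all groups share, drawn from the 2 experiments of each group. They do not measure the spread of the compared groups alone. The SD over genes of the log2 difference between replicates was 0.32 in BaP 24 h, against 0.17 to 0.25 in the other groups.

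Estimated counts were rounded and tested in R 4.3.3 with edgeR 4.0.16 (filterByExpr with minimum count 10 and minimum total count 15, TMM scaling, robust quasi-likelihood fit of 8 libraries with 1 mean per group, two-sided, Benjamini-Hochberg over 14746 genes, threshold 0.05). The SE is the log2 fold change divided by the square root of F. Transcript usage was examined by the gene-level F-test of edgeR for 17034 transcripts holding at least 10% of their gene's counts. Of the 47 genes, 46 were matched by gene ID and HP through its transcripts (its row holds an HPR transcript with 0 counts). Spans came from GENCODE release 29 by ID. Alternatives were DESeq2 size factors, the Wald test of DESeq2 1.42.0, no filter, a replicate block, only the libraries of a comparison, and leaving out each library.

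The genes and lists were chosen with earlier results of these data known, and some listed genes are not reported here and stand outside the counts and sums of their lists. Fold changes with SE and adjusted p are given for genes that passed in any comparison and for ALB, AFP, TTR, FGA, FGB, FGG, SERPINA1, C3 and F2, and from each list for up to 4 genes that passed, by smallest p. Other genes whose p is given (KNG1, HPX, C8A and HP), and TF and AHSG where singled out, were chosen after their values were seen.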

Additional observations from a re-analysis of the deposited data

How the results depend on the processing

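For 19 named genes of the set in 3 comparisons, 18 of 57 fold changes passed, and none of these 18 changed direction in any alternative. Among their 512 alternative values, 434 kept direction and call, 57 lost the call and 9 gained it. Without the filter on low counts, 12 genes passed for BaP at 24 h and 10 for vehicle over time. In fits of the compared libraries alone 1 and 11 passed, and DESeq2 gave 11 for vehicle over time. Leaving out 1 library gave 0 to 3 at 12 h, 0 to 12 at 24 h, 2 to 5 over time in vehicle cells, 0 for the difference between times, and for usage 0 at 12 h and 0 to 2 at 24 h. The causes were not tested. Shares of all genes are not given for these alternatives, so their counts do not compare the set with other genes. For genes outside the set that passed, the same alternatives were added after the data were seen. None of their 38 fold changes changed sign in 342 alternative values. The calls of NQO1 and CPS1 at both times, APOC3 at 24 h and PDGFRB at 12 h (6 in all) held in all 9 alternatives, 32 were lost without at least 1 of the libraries, and 12 in another alternative.

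Replicate numbers are shared between groups, but the labels do not say that they pair the libraries. With the replicate number as a block, 5 genes passed at 12 h, 4 at 24 h, 0 for the difference between times, 6 over time in vehicle cells, and 0 for usage at either time. Deviations of same-numbered libraries correlated by 0.42 (BaP and vehicle at 12 h), 0.06 (24 h) and -0.04 (vehicle 12 h and 24 h).

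Changes of sign were confined, among the named fold changes of the set, to values that did not pass and were smaller in size than their SE. TTR at 24 h had a wide range, so its direction is not resolved. Leaving out 1 library gave -0.36 to 0.45 for TTR and -0.19 to 0.14 for F2 at 24 h, -0.051 to 0.064 for SERPIND1, -0.19 to 0.0086 for SERPINA1, -0.15 to 0.0057 for ITIH3 and -0.12 to 0.0033 for C3 at 12 h, and -0.022 to 0.16 for C1S over time. SERPIND1 at 12 h was also -0.0044 without the filter and -0.0040 in the 12 h libraries alone. The depth of 2592272 counts in BaP 24 h replicate 1 limits low genes most, since 3 counts there equal 1.12 CPM.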
